A study of Homo sapiens with 6 samples.

Results

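Contacts of chromosome 17 with other chromosomes were taken as every pair of 40-kb bins with 1 bin on chromosome 17 and the other on an autosome other than 16, 19, 20 and 22, in 3 cancer cell lines. These are 128720270 bin pairs with 17 partner autosomes, of 2733951927 pairs of bins on different chromosomes in all. Of these, 98971560 were usable, meaning that both bins reached 0.25 of the median coverage in every line, and they came from 1780 of the 2030 bins of chromosome 17 and 55602 of the 63409 partner bins.

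The lines were SNU-C1, from a colon cancer, HCC1954, from a breast cancer, and OE33, from an adenocarcinoma of the esophagus. Each is an established cell line, given no treatment in the labels, and each was measured by in situ Hi-C after digestion with MboI, an enzyme that cuts at GATC. A further colon cancer line, SW480, served here only as a reference for coverage, since its map held almost no read pairs between chromosomes. SNU-C1, HCC1954 and OE33 had 1 deposited map each, so no difference between lines has a replicate check, no p-value is given, and the intervals below are exact 95% Poisson intervals that cover counting error only.

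Hi-C joins DNA ends that lie close together in the nucleus and counts the joined pairs by position. Loci on different chromosomes meet seldom, and small, gene-rich chromosomes such as 16, 17, 19, 20 and 22 meet each other more than the rest. Where pieces of different chromosomes have been joined, read pairs between them are many next to the junction and fewer with distance from it, and where a segment is present in many copies it gives more read pairs with every other locus. The long arm of chromosome 17 carries ERBB2, which codes for the receptor tyrosine kinase HER2 and is amplified in a share of breast and gastroesophageal cancers.

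Contact strength is given as observed over expected (O/E), the mean value over the usable bin pairs of a block pair divided by the mean over all usable bin pairs of different chromosomes (1 to 22 and X) in the same map. Corrected O/E uses the iteratively corrected values, which even out the total of each bin and so also take away part of a difference in copy number. Raw O/E uses the read pairs themselves, and coverage-scaled O/E uses read pairs divided by the relative coverage of both bins. Coverage fold is the relative coverage of a block, in read pairs over the autosomal median, divided by the median of the relative coverages that the 3 remaining lines have there. Line-specific block pairs were those whose corrected O/E reached 4 and, with 0.5 added to every value, 4 times the higher value of the remaining lines.

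For 3 of the contacts described below, that of 17q with 2p in SNU-C1 and those with chromosomes 4 and 12 in HCC1954, a stretch of reference sequence is shown around an MboI site, the site at which a ligation can form, in capitals. The bins are those with the most read pairs within the highest 200-kb pair of the contact. The site was chosen by position, nearest the middle of the bin or, where coding exons of the bin held a site, nearest the middle among those. A gene or coding exon is named for the site itself, and the bases beside it can lie outside that exon. All are on the plus strand of GRCh37, the build of the maps, whose chromosome lengths were the same as in the bin table. Bins of 40 kb hold about 100 such sites (84 to 142 in the bins shown), and do not resolve where 2 chromosomes meet more finely than the bin.
SNU-C1, chr17:26020175-26020234: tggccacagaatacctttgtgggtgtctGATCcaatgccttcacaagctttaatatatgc
SNU-C1, chr2:21100154-21100213: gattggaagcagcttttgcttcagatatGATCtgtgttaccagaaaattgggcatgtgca
HCC1954, chr17:62380025-62380084: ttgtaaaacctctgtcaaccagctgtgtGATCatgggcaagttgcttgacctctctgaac
HCC1954, chr4:92379838-92379897 in CCSER1: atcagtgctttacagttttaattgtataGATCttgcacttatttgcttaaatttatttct
HCC1954, chr17:37900324-37900383 in a coding exon of GRB7: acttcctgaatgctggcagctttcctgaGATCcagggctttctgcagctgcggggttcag
HCC1954, chr12:8808357-8808416 in a coding exon of MFAP5: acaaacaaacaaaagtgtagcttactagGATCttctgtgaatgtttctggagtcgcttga
The bins of the GRB7 and MFAP5 sites shared 97 read pairs, against 4 for the bins of the chromosome 4 pair and 3 for those of the chromosome 2 pair.

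The maps held 135017346, 116359220 and 141120752 read pairs in different bins in SNU-C1, HCC1954 and OE33. Usable bins of chromosome 17 shared 870972, 1653638 and 4258153 read pairs with the partner autosomes, respectively. A pair of 1-Mb blocks was expected to hold 5.85, 6.76 and 15.2 read pairs in SNU-C1, HCC1954 and OE33, and a pair of 200-kb blocks 0.234, 0.27 and 0.608. A 200-kb block pair could therefore be called only with at least 10 read pairs, and low values at that scale carry wide intervals.

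On the corrected mean, chromosome 17 met the partner autosomes slightly more than chromosomes met each other on average. In SNU-C1 this did not hold without correction or for the median 1-Mb block pair. The mean O/E was 1.10, 1.27 and 1.24 in SNU-C1, HCC1954 and OE33, and the raw values were 0.941, 1.55 and 1.77. As a median over 1-Mb block pairs the corrected values were 0.885, 1.08 and 1.13. Against chromosomes 16, 19, 20 and 22, which are not among the partners, the means were 1.97, 2.08 and 2.01. Of the 17 partners, 13 lay above 1 in SNU-C1 and 16 in each of the other lines. Chromosome 4 had the lowest mean in each line, at 0.683, 0.939 and 0.975. In SNU-C1 the highest means were those of chromosomes 21 (1.96, 95% interval 1.93 to 1.98), 13 (1.71) and 15 (1.59). In HCC1954 chromosomes 12 (1.76), 8 (1.75), 13 (1.70) and 21 (1.66) led, and in OE33 chromosomes 15 (1.48), 10 (1.47), 12 (1.43) and 7 (1.40). Raw values gave other orders. In SNU-C1 chromosome 13 had 2.22 raw and chromosome 21 had 1.7. In HCC1954 chromosome 8 had 2.78 and chromosome 12 had 2.12, and in OE33 chromosome 7 had 2.8 and chromosome 15 had 1.88. Spearman's correlation of the 17 corrected partner means was 0.76 between SNU-C1 and HCC1954, 0.517 between SNU-C1 and OE33 and 0.527 between HCC1954 and OE33, so these orders were alike in part.

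**Figure D1:**
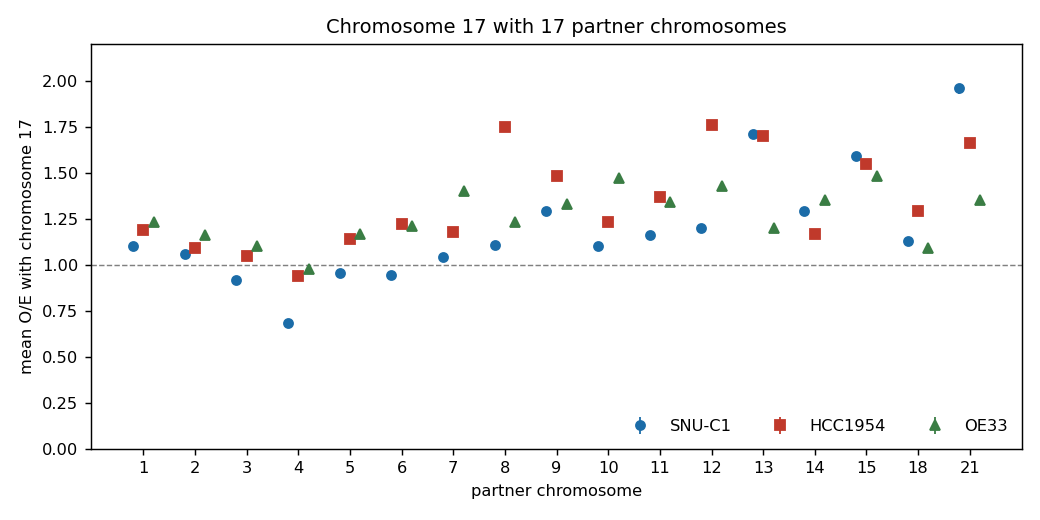
Mean corrected O/E of chromosome 17 with each of the 17 partner autosomes (x axis), with 1 point per line and exact 95% Poisson intervals (counting error only). Chromosome 4 is lowest in the 3 lines, and chromosome 8 stands at 1.75 in HCC1954 against 1.11 in SNU-C1 and 1.23 in OE33.

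Shorter partners tended to have higher means. Spearman's correlation of the mean O/E with partner length over the 17 partners was -0.792, -0.65 and -0.475 in SNU-C1, HCC1954 and OE33. With gene density it was -0.0123, 0.0515 and 0.534. The arms of chromosome 17 differed for single partners. In SNU-C1, 17q met 2p at 1.77 and 17p met 2p at 0.917. In HCC1954, 17q met 8q at 2.15 and 13q at 1.93, against 1.18 and 1.07 for 17p.

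Contact strength went with the gene content of the partner blocks. Blocks of 1 Mb were taken as gene-poor with up to 8 protein-coding genes on chromosome 17 or up to 3 on a partner, and as gene-rich with at least 19.7 or 7, and pairs that were line-specific in any line were left out. Gene-rich blocks of 17 met gene-rich partner blocks at a mean O/E of 1.43, 1.84 and 1.78 in SNU-C1, HCC1954 and OE33. These blocks met gene-poor partner blocks at 0.59, 0.823 and 0.921. Gene-poor blocks of 17 varied less between partners, at 1.31, 1.39 and 1.36 with gene-rich and 1.10, 1.07 and 1.04 with gene-poor blocks. The amplified segments of 17q described below were kept among the blocks of 17. Their corrected O/E with all partners was 4.49 in HCC1954 and 1.78 in OE33, and their part in these means was not tested. Across all 1-Mb block pairs, O/E in 1 line was correlated with that in another at a Spearman's rho of 0.401 between SNU-C1 and HCC1954, 0.415 between SNU-C1 and OE33 and 0.483 between HCC1954 and OE33, over block pairs that share bins and base composition.

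Line-specific contacts were next sought in 1-Mb blocks. SNU-C1 had 253 called block pairs of 160848 (0.157%), HCC1954 had 359 (0.223%) and OE33 had 0. Over all pairs of different chromosomes the called shares were 0.168%, 0.398% and 0.0705% in SNU-C1, HCC1954 and OE33, so chromosome 17 held called pairs near the background share in SNU-C1 and below it in HCC1954 and OE33. By percent called, chromosome 17 took place 10 of 23 chromosomes in SNU-C1 and 15 in HCC1954, and in OE33 it was among those with 0 calls. The called pairs were concentrated in position, since 243 of 253 in SNU-C1 lay in 2 regions with chromosome 2 and 317 of 359 in HCC1954 lay with chromosome 8. In OE33 the block pair nearest to a call reached 3.41, short of 4. That value is the lower of its O/E and its ratio to the other lines. The highest O/E in OE33 was 8.08, against 48.7 in SNU-C1 and 133 in HCC1954. Of all read pairs in different bins, 36.6% joined different chromosomes in OE33, against 14.8% in SNU-C1 and 19.6% in HCC1954. O/E divides by the mean over bin pairs of different chromosomes in the same map. The part of this share in the 0 calls and the lower maximum of OE33 was not tested.

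In SNU-C1, the distal short arm of chromosome 2 had raised contacts with 17q and, next to its edge, with 17p. Over all usable bins, 17q and chromosome 2 from 0 to 21 Mb had an O/E of 4.21 (95% interval 4.16 to 4.26; 24955 read pairs). The same bins had 1.09 in HCC1954 and 1.06 in OE33. Beyond 22 Mb, chromosome 2 met 17q at 0.868 in SNU-C1, below the 1.17 of HCC1954 and the 1.26 of OE33. There 17p was also lower in SNU-C1, at 0.687 against 0.898 in HCC1954 and 0.932 in OE33. Scaled by coverage, 17q had 0.966, 1.1 and 1.02 beyond 22 Mb in SNU-C1, HCC1954 and OE33. With 17p, the distal 21 Mb of chromosome 2 had 1.14, 0.793 and 0.822 in SNU-C1, HCC1954 and OE33. The edge on chromosome 2 was sharp, since the 1-Mb block at 20 Mb met 17q at 6.64, the block at 21 Mb at 2.36 and the block at 22 Mb at 0.558. In HCC1954 these blocks had 1.1, 0.879 and 0.602. Beside this edge 17p was raised in SNU-C1 too, at 2.11 in the block at 20 Mb and 2.84 in the block at 21 Mb (221 read pairs), against 0.422 at 22 Mb. At 21 Mb, 17p had 0.666 in HCC1954 and 0.738 in OE33.

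Within 17q the contact with 2p was uneven. From 25.4 to 37 Mb the O/E was 8.49 (95% interval 8.33 to 8.66) and from 37 to 48 Mb 2.43. From 48 to 57 Mb it was 6.67 (6.51 to 6.83) and from 57 Mb to the end 1.95. In HCC1954 and OE33 the second stretch had 0.903 and 1.13, and the last 1.27 and 0.98. By 1-Mb block the value in SNU-C1 began at 17.7 at 25 Mb and 13.2 at 26 Mb and fell to 5.19 at 29 Mb. It rose to 11.5 at 31 Mb and 10.4 at 32 Mb and fell to 3.44 at 36 Mb. Further on it stood at 3.69 at 48 Mb, rose to 8.98 at 49 Mb and was 2.67 at 57 Mb. The last usable 1-Mb block of 17p, at 19 Mb, had 1.24. The median coverage fold of these 4 stretches was 0.735, 0.795, 1.03 and 0.774, and so was higher in the third than beside it. Within the first it was 0.908 to 1.24 from 30.8 to 32.4 Mb, where the O/E rose a second time. It was 0.73 and 0.716 in the blocks on either side, at 30.6 and 32.6 Mb. At 29.0 Mb, within the 1-Mb block with an O/E of 5.19, it was 0.958. The part of coverage in these rises was not tested. The fold was 0.679 on 17p, and on chromosome 2 it was 1.06 below 21 Mb and 0.898 above 22 Mb.

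The first of the 2 regions joined 25 to 37 Mb of chromosome 17 to 0 to 22 Mb of chromosome 2, with 148 called block pairs at a median O/E of 10.7. Its highest 1-Mb pair, at 25 Mb of 17 and 20 Mb of 2, had 179 read pairs in SNU-C1 (154 to 207), 7 in HCC1954 and 16 in OE33, which gave O/E values of 48.7, 1.09 and 1.42. The highest 200-kb pair of each contact region was taken by ratio to the other lines, among pairs with at least 10 read pairs. In this region it lay at 26 Mb and 21 Mb and held 13 read pairs (6.92 to 22.2). Its O/E was 58.5, with 55.6 raw and 68.3 scaled by coverage. Near it lie NOS2, the inducible nitric oxide synthase, on chromosome 17, and LDAH, a lipid droplet hydrolase, on chromosome 2.

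The second region joined 48 to 57 Mb of chromosome 17 to 0 to 21 Mb of chromosome 2, with 95 called block pairs at a median O/E of 8.24. Its highest 1-Mb pair, at 50 Mb and 18 Mb, had an O/E of 17.2 from 76 read pairs (59.9 to 95.1). Its highest 200-kb pair, at 49.2 Mb and 20.4 Mb, had 63.4 from 17 read pairs (9.9 to 27.2). The blocks hold MBTD1, NME2, a nucleoside diphosphate kinase, and UTP18, which acts in ribosome biogenesis, on 17, and PUM2, an RNA-binding repressor, and SDC1, the cell-surface proteoglycan syndecan-1, on 2. Of the 4 quadrants around this pair, each 10 by 10 blocks, the highest, with a mean O/E of 12.7, lay toward higher positions of 17 and lower positions of 2.

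**Figure D2:**
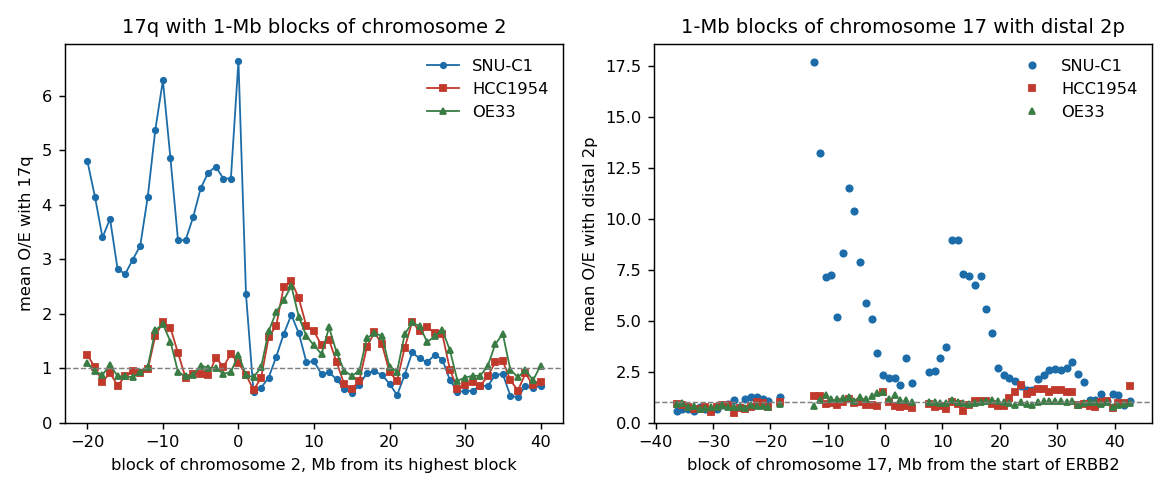
Corrected O/E in 1-Mb blocks of 17q with chromosome 2, by distance in Mb from the block of chromosome 2 with the highest value (left), and of chromosome 17 with the first 21 Mb of chromosome 2, by distance in Mb from the start of ERBB2 (right), with 1 line per cell line. In SNU-C1 the value on chromosome 2 drops from 6.64 to 0.558 within 2 blocks. Along 17 it is highest in 2 stretches of 17q, with a mean of 2.43 between them and 1.95 beyond them.

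Calls in 200-kb blocks gave another picture in SNU-C1. There 336 of 4024080 block pairs (0.00835%) were called, under the background of 0.0242% over all pairs of different chromosomes, and 277 of them were with 5 blocks of chromosome 11. These blocks lay at 23.6, 23.8, 34.8, 35.0 and 35.2 Mb. Those at 23.6 and 23.8 Mb hold no protein-coding gene. The others hold PDHX, a part of the pyruvate dehydrogenase complex, CD44, a hyaluronan receptor, and SLC1A2, a glutamate transporter. The coverage fold of the 5 blocks in SNU-C1 was 26.7, 26.4, 1.6, 23.3 and 26.9. Their read pairs were spread over chromosome 17, where 343 to 360 of the 360 usable blocks had at least 1, and the median O/E over those blocks was 3.62, 5.71, 2.84, 6.64 and 5.74. Summed over chromosome 17, the 5 blocks had 1768 to 5182 read pairs in SNU-C1, 28 to 333 in HCC1954 and 186 to 505 in OE33. In total 272 of the 336 called pairs had a partner block with a coverage fold of at least 3, whose part in the calls was not tested, and 54 were with chromosome 2. With the other lines set at the upper bounds of their Poisson intervals, a setting added after the values were seen, 23 of the 336 stayed called.

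In HCC1954, chromosome 17 met several separate segments, first of all on 8q. The 359 called 1-Mb pairs fell into 28 regions on 9 partner chromosomes, of which 10 had at least 3 pairs. Beside the 317 with chromosome 8, there were 22 with chromosome 12, 10 with 13, 3 with 4 and 3 with 10. The mean O/E with chromosome 8 was 1.75 with the called pairs and 1.36 without them.

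Outside the amplified segment around ERBB2, the contact with 8q was raised in 3 stretches of chromosome 17. Against 72 to 80 Mb and 88 to 107 Mb of chromosome 8, the O/E was 21.4 (95% interval 21 to 21.8) from 25.4 to 27 Mb of 17, 10.3 (10.2 to 10.4) from 59 to 71 Mb and 8.55 (8.21 to 8.91) from 80 Mb to the end. Between these stretches it was 1.20 from 27 to 37.6 Mb, 1.14 from 38.4 to 59 Mb and 1.11 from 71 to 80 Mb, and on 17p it was 1.07. In SNU-C1 and OE33 the values along chromosome 17 ranged from 0.769 to 1.25. The median coverage fold in HCC1954 was 1.66, 1.61 and 1.48 in the 3 raised stretches and 1.19, 0.976 and 1.09 between them, and it was 1.89 and 2.64 in the 2 segments of 8q. Coverage moved with the raised stretches, and its part in the contact was not tested. On the coverage-scaled measure 17 from 59 to 71 Mb had 7.56 with 72 to 80 Mb and 5.57 with 88 to 107 Mb of chromosome 8. From 80 to 88 Mb of chromosome 8 the corrected O/E with 59 to 71 Mb of 17 was 3.20, and beyond 107 Mb it was 1.65.

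The highest of these contacts lay near 26.8 Mb of chromosome 17 and 79.4 Mb of chromosome 8. There the 200-kb pair held 239 read pairs in HCC1954 (210 to 271) and 0 in both other lines, with an O/E of 440, 885 raw and 283 scaled by coverage. The 1-Mb pair around it had 1656 read pairs (1577 to 1738) against 2 in SNU-C1 and 7 in OE33, an O/E of 133. On 17 the block holds ALDOC, the brain form of aldolase, PIGS, which attaches GPI anchors, and SPAG5, a protein of the mitotic spindle. On 8 it holds PKIA, an inhibitor of protein kinase A, ZC2HC1A and IL7, a lymphocyte growth factor. The coverage fold was 1.45 on 17 and 2.92 on 8. The stretch from 25 to 27 Mb of chromosome 17 was also called in 37 pairs with 88 to 107 Mb of chromosome 8 (median O/E 14.6).

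The stretch from 59 to 71 Mb of chromosome 17 was called in 69 pairs with 72 to 80 Mb of chromosome 8 (median O/E 13.2) and in 171 pairs with 89 to 107 Mb (median 10.8). The highest 200-kb pair of the former, at 60 Mb and 79.4 Mb, had an O/E of 56.7 from 38 read pairs and lies at MED13, a subunit of Mediator, and INTS2, a subunit of Integrator. That of the latter, at 67 Mb and 105.8 Mb, had 42.4 from 17 read pairs and lies at the ABC transporter genes ABCA6, ABCA9 and ABCA10, and at ZFPM2, a partner of GATA factors. The tip of 17q, from 80 to 81 Mb, was called in 11 pairs with 95 to 107 Mb of 8 (median 8.68). It was also called in 4 pairs with 72 to 77 Mb, 3 with 89 to 92 Mb and 1 with 79 to 80 Mb. Its highest 200-kb pair, at 80.6 Mb and 95.4 Mb, had 34.1 from 18 read pairs, at FN3K and FN3KRP, kinases that remove sugars from proteins, and RAB40B on 17 and VIRMA, of the RNA methylation complex, and RAD54B, of recombination repair, on 8. The 4 described 200-kb pairs with chromosome 8 were also set over the mean of chromosomes 8 and 17. They then had 252 in place of 440, 32.4 in place of 56.7, 24.3 in place of 42.4 and 19.5 in place of 34.1. Raw and coverage-scaled values of the last 3 were 141 and 36.2, 62.9 and 26, and 66.6 and 23.9.

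**Figure D3:**
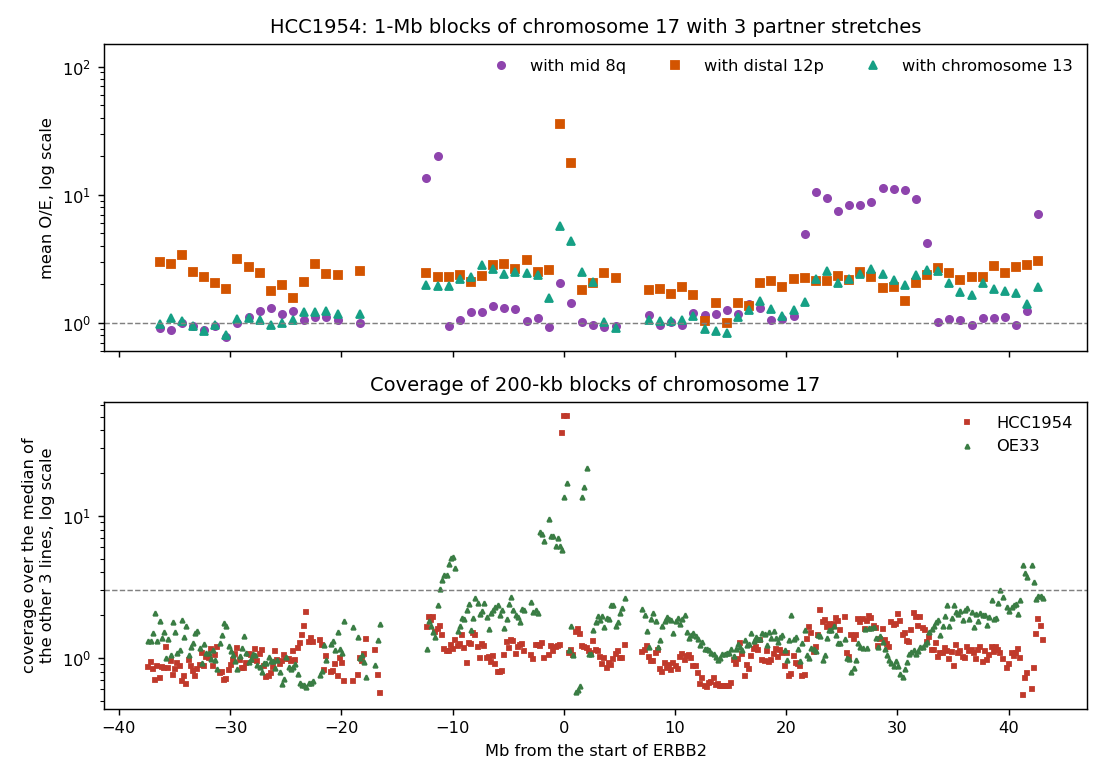
Corrected O/E (log axis) of 1-Mb blocks of chromosome 17 in HCC1954 with 72 to 107 Mb of chromosome 8 (mid 8q), 0 to 9.2 Mb of chromosome 12 (distal 12p) and chromosome 13 (top), and coverage fold of 200-kb blocks in HCC1954 and OE33 (bottom, log axis, dashed line at 3), by distance in Mb from the start of ERBB2. The contact with 8 is raised in 3 stretches away from ERBB2, and those with 12 and 13 are highest at ERBB2, where the coverage fold reaches 51 in HCC1954.

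A smaller contact joined 62 to 63 Mb of chromosome 17 to 92 to 95 Mb of chromosome 4, in 3 called 1-Mb pairs. The highest 1-Mb pair had an O/E of 18.7 from 110 read pairs (90.4 to 133), and the highest 200-kb pair, at 62.2 Mb and 92.2 Mb, had 85.2 from 24 (15.4 to 35.7), with 88.8 raw and 85 scaled by coverage. The 3 measures were close to each other here, and the coverage fold was 1.9 on 17 and 1.14 on 4. TEX2 and ERN1, which codes for the sensor of unfolded proteins IRE1, lie on 17, and CCSER1, a long gene in a gene-poor region, lies on 4. The quadrant around this pair toward higher positions on both chromosomes had the highest mean, 8.67.

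The segment of 17q with the highest coverage in HCC1954 ran from 37.6 to 38.2 Mb. Its blocks had a coverage fold of 38.6 to 51 (median 50.2), and it holds 20 protein-coding genes, among them ERBB2, GRB7, which codes for a signaling adaptor, and CDK12, a kinase of RNA polymerase II. In 40-kb bins the relative coverage rose from 1.73 at 37600001 to 37.6 at 37640001 and fell from 24.7 at 38120001 to 0.994 at 38160001. Base composition differed as well, with a GC content of 49.2% against 44.8% in the rest of 17q and 39.7% over the genome. The segment had 123 MboI sites per bin, against 111 and 98.

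With the 17 partner autosomes this segment shared 407544 read pairs. Its mean O/E was 4.49 with correction, 45.2 raw and 1.25 scaled by coverage, while the rest of 17q had 1.30, 1.32 and 1.29. Against the rest of 17q with the same partner, the corrected value was 2.09 to 5.72 times as high (median 3.25 over the 17 partners), the raw value 18.7 to 56 times (median 33.2) and the coverage-scaled value 0.634 to 1.71 times (median 0.901). Chromosome 8 gave the lowest and chromosome 13 the highest of these ratios. For chromosome 8 the rest of 17q includes the stretches with raised 8q contact. The segment's own corrected O/E was 4.02 with chromosome 8, and was lowest with chromosome 18, at 3.13. The raised contact of the amplified segment with every partner was therefore seen in raw and corrected values, and with coverage divided out the median ratio lay just below 1. In SNU-C1, where the segment is not amplified, its corrected and raw values were 0.78 and 0.716.

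Line-specific partners of the segment were sought in 200-kb blocks. In HCC1954, 311 of 11178 partner blocks were called (2.78%). Set against all other chromosomes, 16, 19, 20, 22 and X included, the segment had 323 of 12781 blocks called (2.53%). The 311 are among these 323, so the closeness of the shares is built in. Of the 311, 196 were on chromosome 13 and 45 on chromosome 12, followed by 11 on 4 and 10 on 9. The few read pairs of the other lines weighed heavily here. With the other lines set at the upper bounds of their Poisson intervals, a setting added after the values were seen, 45 blocks stayed called, 39 on chromosome 12 and 6 on chromosome 13.

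The contact with chromosome 12 ended within 1 bin. All 44 usable blocks from 0.2 to 9.2 Mb were called, with a median O/E of 66.8 (643 raw, 16.9 scaled by coverage). The block at 9.0 Mb was highest, with 2434 read pairs (2338 to 2533), against 0 in SNU-C1 and 34 in OE33, and an O/E of 332 (3003 raw, 84 scaled). The next block, at 9.2 Mb, had 26 read pairs and an O/E of 5.61. By 40-kb bin, the O/E was 385 at 9120001 (558 read pairs), 300 at 9160001 (425 read pairs) and 0.712 at 9200001 (1 read pair). The relative coverage of chromosome 12 in the bins on the 2 sides of this drop fell from 0.798 to 0.518.

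Distal 12p stood apart from the rest of chromosome 12 on each measure. With 0 to 9.2 Mb of 12 the amplified segment had an O/E of 83.3 (82.4 to 84.3; 27841 read pairs), 788 raw and 22 scaled by coverage. With 9.2 to 34.8 Mb it had 3.08, 21.2 and 1.1, and with 12q 4.27, 38.8 and 1.32. In SNU-C1 the 3 segments of chromosome 12 had corrected values of 1.66, 0.393 and 0.965, and in OE33 3.09, 2.14 and 2.57. The coverage fold of chromosome 12 in HCC1954 had a median of 0.845, 0.511 and 0.864 over these segments. Along 17 the contact followed the bins of high coverage, with an O/E of 77.8 to 124 in the bins from 37640001 to 38160000. It was 6.07 and 3.3 in the first and last bins of the segment, which have low coverage. The rest of 17q met distal 12p at 2.52 below the segment and 2.07 above it, near the 2.63 and 2.2 of SNU-C1.

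As a contact region, 37 to 39 Mb of 17 and 0 to 10 Mb of 12 held 19 called 1-Mb pairs with a median O/E of 24.2. The highest of them, at 37 Mb and 8 Mb, had 3420 read pairs against 2 in SNU-C1 and 136 in OE33. The highest 200-kb pair by ratio, at 37.8 Mb and 8.8 Mb, held 1075 read pairs (1012 to 1141), with an O/E of 339 (193 over the mean of chromosomes 12 and 17), 3978 raw and 84.1 scaled, and a coverage fold of 51 on 17 and 0.984 on 12. On 17 it holds ERBB2, GRB7 and MIEN1, a gene beside them on the same stretch, and on 12 RIMKLB, MFAP5, a protein of elastic microfibrils, and A2ML1, a protease inhibitor. These are the bins of the last pair of sequences given above.

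Chromosome 13 met the segment more broadly. Its O/E was 10.5 with correction, 95 raw and 3.15 scaled by coverage (26846 read pairs), and 0.968 in SNU-C1 and 1.83 in OE33 with correction. In windows of 12 Mb it was 15 from 19 to 31 Mb, 13.6 to 43 Mb, 13 to 55 Mb, 3.92 to 67 Mb, 7.71 to 79 Mb, 5.97 to 91 Mb, 9.31 to 103 Mb and 7.85 to the end. The called blocks lay mostly from 20.2 to 53.8 Mb, where 137 of 168 were called and the block at 20.4 Mb was highest, with an O/E of 34.1 from 248 read pairs. Further runs were at 73.4 to 77.8 Mb (11 of 19 blocks), 95.4 to 103.4 Mb (25 of 40) and 109.8 to 115.2 Mb (16 of 24). The median coverage fold of chromosome 13 was 0.843. The rest of 17q met chromosome 13 at 2.27 below the segment and 1.70 above it.

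**Figure D4:**
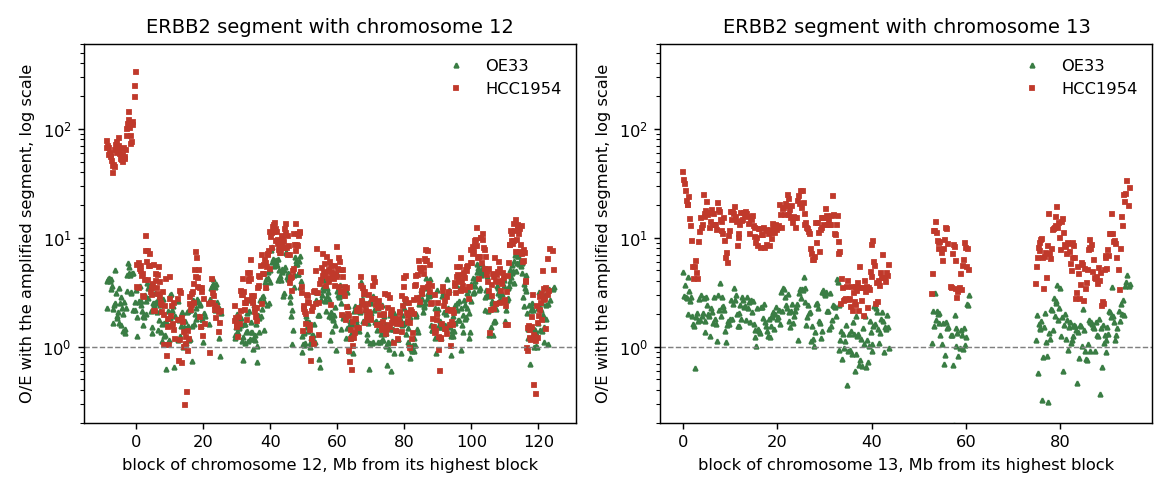
Corrected O/E (log axis) of the segment from 37.6 to 38.2 Mb of chromosome 17 with 200-kb blocks of chromosomes 12 and 13 in HCC1954 and OE33, by distance in Mb from the highest block of each chromosome, with blocks at 0 left out and a dashed line at 1. In HCC1954 the values on 12 have a median of 66.8 up to 9.2 Mb and drop there, while those on 13 are raised over most of the chromosome.

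In 200-kb blocks of chromosome 17, HCC1954 had 3191 called pairs (0.0793%, background 0.0481%). The amplified segment held 1556 of them (48.8%) in 0.833% of the blocks of 17. A further overlap was with the 1-Mb calls, which contained 1722, and 608 had a partner block with a coverage fold of at least 3. With the other lines at their upper Poisson bounds, 103 of the 3191 stayed called. A call needed at least 10 read pairs, where 0.27 were expected for a 200-kb pair. The amplified segment had a raw O/E of 45.2 and the rest of 17q 1.32. High coverage makes that minimum easier to reach, so the segment's share of the calls is in part built in. The part of coverage in the excess over the background was not tested.

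OE33 had 5 segments of 17q past a coverage fold of 3. They ran from 26.6 to 28.2 Mb (coverage fold 3.08 to 5.14, 44 protein-coding genes), 35.6 to 38.2 Mb (5.78 to 17, 54 genes), 39.4 to 40 Mb (13.6 to 21.7, 31 genes), 77.0 to 77.2 Mb (3.01) and 79.0 to 80.2 Mb (3.41 to 4.52). The second of these holds ERBB2, GRB7 and CDK12, at coverage folds of 13.7, 13.7 and 5.78. The segment from 39.4 to 40 Mb, with the highest coverage, holds 23 genes of keratins and keratin-associated proteins, structural proteins of epithelia and hair, and JUP, which codes for the junction protein plakoglobin. In the last pair of segments OE33's own relative coverage was only 1.27 and 1.67, and the fold came from low values in the other lines.

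The first 3 of these segments met the partner autosomes more than the rest of 17q on the raw and corrected measures. With coverage divided out, the median ratio to the rest of 17q over the 17 partners was 1.01 and 1.02 for the first pair of them and 0.835 for the segment from 39.4 to 40 Mb, which lay below the rest of 17q for every partner (0.699 to 0.931). Mean corrected O/E was 1.69, 1.98, 2.21, 1.04 and 1.21 in the order above, and the raw values were 4.51, 8.64, 15.6, 1.20 and 1.68. Scaled by coverage they were 1.17, 1.15, 0.948, 0.895 and 1.05, and the rest of 17q had 1.26 corrected, 1.56 raw and 1.13 scaled. Against the rest of 17q with the same partner, the median corrected ratio over the 17 partners was 1.31, 1.57, 1.74, 0.808 and 0.949. For the first 3 segments these ratios lay between 1.13 and 1.92 for every partner, with no partner set apart as chromosomes 12 and 13 were in HCC1954, and whether that difference between the lines comes from more than coverage was not tested.

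**Figure D5:**
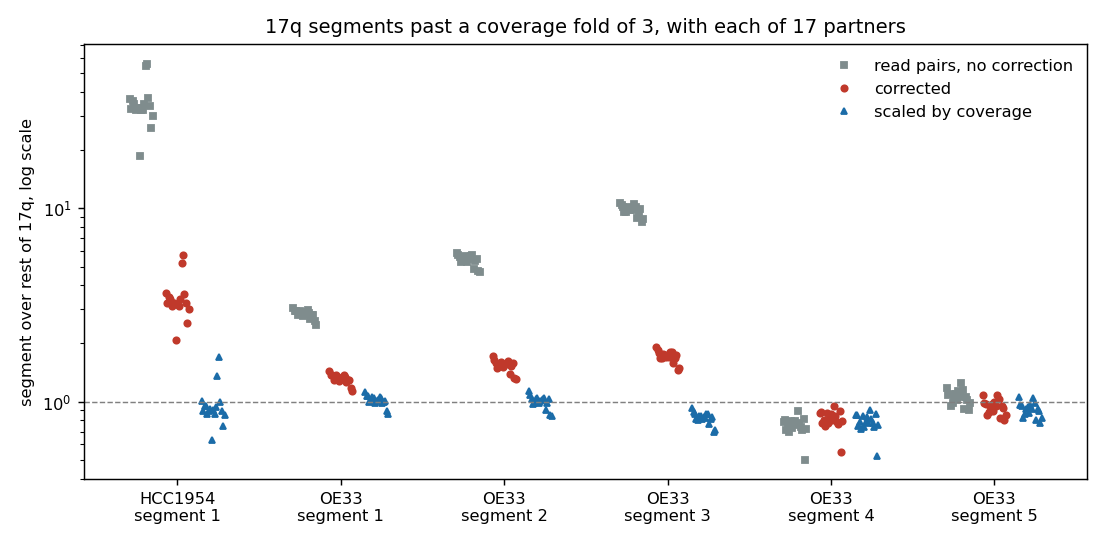
O/E of each segment of 17q past a coverage fold of 3 over that of the rest of 17q with the same partner (log axis), with 1 point for each of the 17 partner autosomes on the raw, corrected and coverage-scaled measures, for the segment of HCC1954 and segments 1 to 5 of OE33 in order of position. In HCC1954 the points have medians of 33.2 raw, 3.25 corrected and 0.901 scaled by coverage, and for the first 3 segments of OE33 the corrected points lie between 1.13 and 1.92.

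Of 11178 partner blocks for each OE33 segment, 4, 0, 70, 0 and 5 were called, 79 in all. The second segment holds the bins amplified in HCC1954, whose mean corrected O/E there, 2.1, was above the 1.98 of OE33. HCC1954 had 0 read pairs in 1 block of that segment, against 5465 blocks for 39.4 to 40 Mb. A call needed 4 times the higher value of the other lines, so the counts of these segments cannot be compared. Set against all other chromosomes, the segments had 92 of 63905 blocks called (0.144%). That background includes these 79 calls, so a share close to it is built in and is no result about the partner autosomes. The highest of these 79 was 39.4 to 40 Mb with chromosome 2 at 241.4 Mb, with an O/E of 8.11 from 81 read pairs (64.3 to 101) and 0 read pairs in both other lines. Its raw value was 55.5 and its coverage-scaled value 3.21, at a partner coverage fold of 2.23. Next came chromosome 11 at 63.8 Mb (7.94, 129 read pairs) and 66.2 Mb (7.72, 146 read pairs) with the same segment. Of the 70 blocks of that segment, 61 had no read pair in either other line, and with the other lines at their upper Poisson bounds 0 of the 79 stayed called.

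The profile along the partners was close to that of the surroundings for the first 3 segments and less so for the others. Over the 11178 partner blocks, Spearman's correlation of the segment's O/E with that of the rest of 17q was 0.815, 0.879, 0.83, 0.348 and 0.569 in the order of the segments, from the same library. The correlation with the number of genes in the 1 Mb around the partner block was 0.63, 0.672 and 0.627 for the first 3 segments. For the rest of 17q it was 0.685, higher than for these segments. With the coverage fold of the partner, the first 3 segments had 0.42, 0.463 and 0.449 for corrected and 0.523, 0.557 and 0.547 for raw values. In 200-kb blocks of 17, OE33 had 4509 called pairs (0.112%, background 0.0209%). Of these, 3993 (88.6%) fell in the segments, which make up 8.06% of the blocks. In 4498 (99.8%) both other lines had 0 read pairs, so that at the depth of SNU-C1 and HCC1954 a difference of this size was not detectable. At their upper bounds 0 stayed called. None could lie in a called 1-Mb pair, as OE33 had 0 of these. A call needed at least 10 read pairs, where 0.608 were expected for a 200-kb pair. The segments together had a raw O/E of 6.96 and the rest of 17q 1.56. High coverage makes that minimum easier to reach, so the share in the segments is in part built in. The part of coverage in the excess over the background was not tested.

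Of the listed cancer genes of chromosome 17, 3 lay in an amplified segment, namely ERBB2, GRB7 and CDK12, in HCC1954 and in OE33. Of the 72 usable 1-Mb blocks of chromosome 17, 44 (61.1%) had a called pair in at least 1 line, so a call in the block of a gene does not set that gene apart. The blocks of STAT3, BRCA1, SPOP, PPM1D, RPS6KB1, GRB2 and BIRC5 had no called 1-Mb pair in any line. In SNU-C1 the blocks of NF1, a brake on RAS signaling, and RNF43, which restrains Wnt signaling, had 6 and 2 called pairs, and that of the transcription factor SOX9 had 2. In HCC1954 the blocks of SOX9 and NF1 had 5 and 1, those of the transcription factor TBX2 and of the helicase BRIP1 had 8 each, and those of TOP2A, a DNA topoisomerase, and RARA, a retinoic acid receptor, had 13 each, in the block from 38 Mb that also holds the distal end of the amplified segment. None of 12 listed genes of partner chromosomes lay in a called partner block of the HCC1954 segment, where 2.78% of all partner blocks were called, so this count says nothing of these genes. The coverage fold of MYC was 1.48 there, and that of TERT, which codes for telomerase, 4.85, with an O/E to the segment of 6.72 and 10.6. Over all partner blocks in HCC1954 this O/E had a median of 3.31 and a 95th percentile of 10.3. The blocks of MYC and TERT had 1.08 and 5.4 in SNU-C1, and 3.15 and 2.6 in OE33.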

How the data were processed

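In situ Hi-C maps of SNU-C1, HCC1954 and OE33 were analysed, with 1 deposited map per line, and the SW480 map entered coverage only. The methods speak of duplicate libraries and do not say how these were pooled. BWA-MEM was the authors' aligner (hg19) and Picard their tool against PCR duplicates, both without a version in the sources used here, and they deposited an iteratively corrected contact signal for each pair of 40-kb bins, with pairs within a bin left out for these 3 lines. Iterative correction divides read pairs by a factor for each bin, so it lowers values of bins with many copies without removing their effect in full.

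Read pairs were recovered from the deposited signal by finding a factor for each bin that made the values whole numbers (45 iterations). Among values of up to 20.5 read pairs, 100% in each of the 3 lines and 99.96% in SW480 lay within 0.02 of a whole number. Depth, intervals, raw O/E and coverage rest on these read pairs. Bins needed 0.25 of the median coverage in all 4 lines, 1-Mb blocks 15 of 25 usable bins and 200-kb blocks 3 of 5. Segments of 17q, counted from 25 Mb, were runs of 200-kb blocks with a coverage fold of at least 3, joined across 1 block, and contact regions were called pairs within 2 blocks of each other on both chromosomes. Contact regions with at least 3 called pairs, up to 6 per line in order of their highest 200-kb ratio, and up to 3 genes nearest each end were named, beside the listed cancer genes. The members and lists were chosen with earlier results of these data known. With 1 map per line there was no test. Lines shared no replicates, and nothing in the labels speaks of separate cultures. Scripts were tested on simulated data with known contacts. The scripts ran under Python 3.11.15 with numba 0.67.0, SciPy 1.17.1, NumPy 2.4.6, PyArrow 21.0.0 and Matplotlib 3.10.9. Alternatives changed the expected value, the correction, the block size, the thresholds, the usable bins and the lines compared. The result of 1 listed gene is not reported here.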

Additional observations from a re-analysis of the deposited data

How the results depend on the processing

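Counts of called pairs moved with the settings. Blocks of 2 Mb and 400 kb also leave fewer pairs to test, so counts at those sizes are not out of the same total. In 1-Mb blocks, the 253 calls of SNU-C1 became 70 in 2-Mb blocks, 38 at a threshold of 8 and 120 with at least 50 read pairs. The 359 of HCC1954 became 215 with the expected value of the same chromosome pair, 907 without correction, 85 in 2-Mb blocks, 120 at a threshold of 8 and 539 against SNU-C1 alone. The 0 of OE33 became 3608 without correction, 1 with a constant of 0.1, 5 against SNU-C1 alone and 1 against HCC1954 alone. In 200-kb blocks, the 336 calls of SNU-C1 became 687 without correction, 655 in 400-kb blocks, 181 at a threshold of 8, and 1415 and 94 with at least 5 and 20 read pairs. The 3191 of HCC1954 became 10567, 1911, 1251, 6596 and 1148 in that order, and 11260 against SNU-C1 alone. The 4509 of OE33 became 20392, 366, 162, 20992 and 1104, 10323 against SNU-C1 alone and 1971 with the expected value of the same pair. With the other lines at their upper Poisson bounds, a setting chosen after seeing the data, the counts were 23, 103 and 0. Mean O/E in SNU-C1, HCC1954 and OE33 was 0.941, 1.55 and 1.77 without correction, 0.885, 1.08 and 1.13 as a median of 1-Mb pairs, so that SNU-C1 fell below 1 under both, and 1.11, 1.29 and 1.25 with bins of at least 0.5 of the median coverage. It was 1.08 and 1.25 in SNU-C1 and HCC1954 without called pairs, and 1.24 and 1.20 in HCC1954 and OE33 without the amplified segments. The 311 partner blocks of HCC1954 became 3857 without correction, 183 with the same-pair expected value, 2838 against SNU-C1 alone and 45 at the upper bounds. The 79 of OE33 became 10066, 22, 375 and 0, and 158 and 149 with segments called at coverage folds of 2 and 5. The highest contact of a segment among called partner blocks, 332 in HCC1954 and 8.11 in OE33, was 3003 and 55.5 without correction and 84 and 3.21 scaled by coverage, and 189 in HCC1954 with the same-pair expected value. No paired analysis was possible because each line had 1 map and no replicate number was shared. Depth limits the 200-kb calls, since a pair was expected to hold under 1 read pair in each map.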
